A study of Mus musculus with 18 samples.

Results

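Skeletal muscle of mice that carry the TN-XXL transgene was compared with skeletal muscle of wild type mice. The transgene product reports calcium by fluorescence: it joins 2 fluorescent proteins, 1 cyan and 1 yellow, through a calcium-binding domain derived from troponin C, and calcium binding changes the energy transfer between them. The comparison rests on the 6 muscle arrays of 18 in all, chosen by their titles, with 3 transgenic arrays (written +/+ in the titles) and 3 wild type arrays. All mice were of strain C57BL/6, and the wild type mice were littermates of the transgenic ones. The other arrays measured heart and hippocampus of the same 2 genotypes, with 6 arrays for each tissue. The labels do not name the promoter that drives the indicator, the founder line, the muscle dissected, the age or sex of the mice or the hour at which tissue was taken. They do not say whether the arrays of a group came from separate animals, so the spread behind every p-value is that between these arrays and may be technical. The transgene itself was not analysed here.

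A muscle fibre contracts when calcium leaves the sarcoplasmic reticulum through the ryanodine receptor and binds troponin C on the thin filament. Calcium also acts on transcription in muscle, chiefly through calmodulin, calcineurin and its NFAT factors. Muscle fibres carry a circadian clock as well. In it Arntl (BMAL1) pairs with CLOCK or NPAS2 and activates the Per and Cry genes, whose products feed back to repress that activator. Transcripts of clock genes therefore rise and fall over the day, with Arntl high when the Per genes are low.

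Each array gave a log2 value for 35382 probe sets, of which 21153 carried 1 gene symbol and covered 18781 genes. The median of all muscle values was 2.45, and single arrays had medians of 2.44 to 2.49. Arrays of 1 group correlated at 0.9818 to 0.9872 across probe sets, and arrays of different groups at 0.978 to 0.981. The first principal component held 33.7% of the variance and separated the genotypes. The second held 19.5% and separated transgenic array 1 (−40.65) from transgenic array 2 (36.33), with the other 4 arrays between −4.67 and 5.31. The 10 markers of skeletal muscle were bright, with mean levels per gene of 10.44 to 12.17, and none of them differed. Among sex-linked genes, over all 6 arrays, Xist lay between 1.42 and 1.96, Uty between 4.63 and 4.82, Eif2s3y between 5.07 and 6.06, Kdm5d between 4.16 and 4.59 and Usp9y between 1.43 and 1.73, with no call on any of these 5.

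Each difference is the transgenic mean less the wild type mean in log2 units, given ± the SE of a limma fit to the 6 arrays. A probe set was called when its Benjamini-Hochberg adjusted p over all probe sets was under 0.05. The fit called 838 probe sets, 2.37% of those tested, with 324 higher in transgenic muscle (0.916%) and 514 lower (1.45%). Called differences ran from −3.08 to 3.04 with a median size of 0.84, and the smallest was 0.45. At least 2-fold differences numbered 112 higher and 178 lower. The called probe sets with 1 symbol belonged to 642 genes. Taking the brightest probe set of each gene, 630 of 18781 genes were called, 3.35%, with 253 higher (1.35%) and 377 lower (2.01%), and the median difference over all genes was 0.01. The 3 transgenic arrays lay wholly above or below the 3 wild type arrays for 21.9% of probe sets and for 26.9% of genes. The plot of difference against level shows every probe set with these calls.

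**Figure D1:**
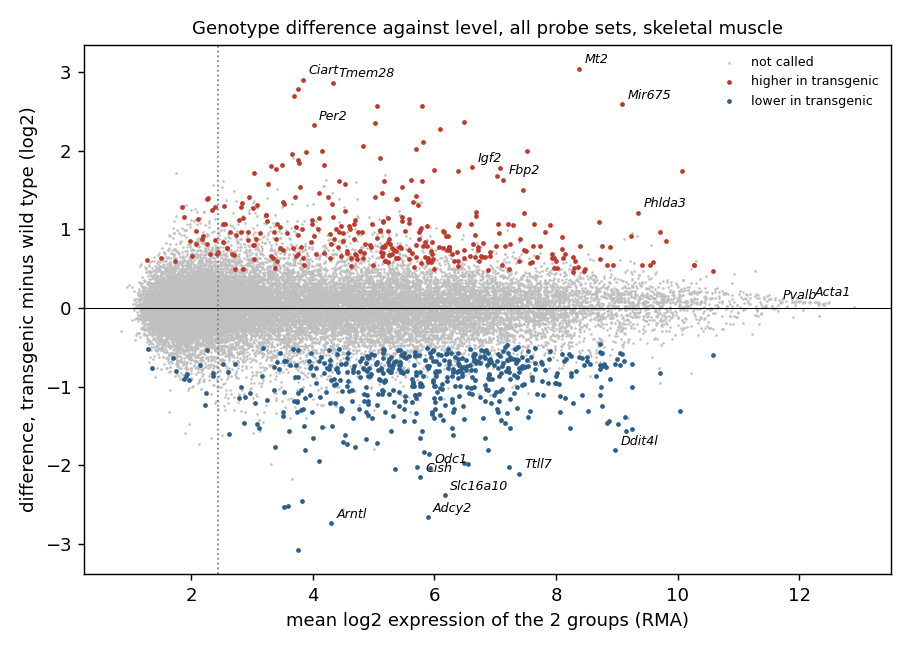
Each point is 1 of 35382 probe sets, with the mean log2 expression of both groups on the x axis and the log2 difference (transgenic minus wild type) on the y axis. Red points (324) were called higher, blue points (514) lower and grey points not called, and the dotted line is the median of all muscle values (2.45).

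In transgenic muscle the called clock activators and repressors split by their role. Clock, Rora, Rorb, Arntl2 and Cry1 were not called, and the repressor gene Cry1 lay below wild type on every transgenic array. Arntl and Npas2, on the activating side, were lower in transgenic muscle, and Per1, Per2, Per3, Cry2 and Ciart, on the repressing side, were higher. Of 31 genes in lists of clock activators, repressors and outputs, 26 were measured by a probe set with 1 symbol. The fit called 9 of them higher and 2 lower, or 42.3% of the measured genes, against 3.35% of all genes. These lists were drawn up with earlier results of the same arrays known, so the counts describe them and are not independent evidence.

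On the activating side, Arntl stood at 3.19, 3.00 and 2.62 in the transgenic arrays, against 5.43, 5.65 and 5.94 in the wild type arrays. No transgenic value came within 2 log2 units of a wild type value, and the difference was −2.74 ± 0.19 (limma, adjusted p = 0.00359, 6.67-fold lower). Npas2, which encodes a partner of BMAL1, was at 3.20, 3.10 and 3.09 in transgenic and 4.89, 4.77 and 5.59 in wild type muscle, a difference of −1.95 ± 0.22 (adjusted p = 0.0123). Clock, the gene of the other partner, was below wild type on every transgenic array (6.75, 6.38 and 6.55 in transgenic arrays, against 7.0, 6.87 and 7.06 in wild type arrays) but did not pass (−0.42 ± 0.12, adjusted p = 0.164). Rora, whose product activates Arntl, was at 0.07 ± 0.12 (adjusted p = 0.845).

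On the repressing side, Per1 reached 6.70, 6.93 and 6.99 in transgenic arrays, against 4.43, 4.55 and 5.30 in wild type arrays. Per2 reached 4.87, 5.08 and 5.58 in transgenic arrays, against 2.90, 2.70 and 2.97 in wild type arrays. Per3 reached 5.70, 5.94 and 5.93 in transgenic arrays, against 4.01, 4.14 and 3.22 in wild type arrays. For these 3 genes every transgenic array was above every wild type array, and they rose by 2.11 ± 0.24, 2.32 ± 0.19 and 2.06 ± 0.25 (limma, adjusted p = 0.0125, 0.00563 and 0.0146). Ciart, which encodes a repressor of CLOCK and BMAL1, was at 4.88, 5.02 and 5.98 in transgenic muscle and at 2.41, 2.69 and 2.08 in wild type muscle (2.90 ± 0.31, adjusted p = 0.0112, and 2.69 by its other probe set). The wild type mean of Ciart lay under the array median, so the exact size is not read. Cry2 rose by 0.84 ± 0.13 (adjusted p = 0.0322). Cry1 went the other way, below wild type on every transgenic array, and did not pass (−0.53 ± 0.14, adjusted p = 0.13). With all 18 arrays in the fit, after averaging each gene's probe sets or over probe sets with 1 symbol, 1 gene of the repressor list was called lower. Nr1d2, the gene of the Arntl repressor REV-ERB beta, rose by 0.91 ± 0.11 (adjusted p = 0.0136), while its other, dimmer probe set was at 0.14 (adjusted p = 0.605).

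Among genes driven by the clock, Tef, a transcription factor of the PAR bZIP family, rose by 1.07 ± 0.14, the ubiquitin protease gene Usp2 rose by 1.09 ± 0.10, and Tspan4 rose by 0.77 ± 0.13 (limma, adjusted p = 0.019, 0.00684 and 0.035). Usp2 was at 9.11, 9.26 and 9.37 in transgenic arrays, against 8.18, 8.18 and 8.12 in wild type arrays, and was the brightest of the called clock genes. Nfil3, which encodes a repressor that acts against the PAR bZIP factors, was at 4.74, 4.76 and 5.29 in transgenic muscle and 6.00, 6.05 and 6.74 in wild type muscle. Its groups did not overlap, and it missed the threshold (−1.33 ± 0.25, adjusted p = 0.0531). The same was so of Wee1 (0.77 ± 0.21, adjusted p = 0.138) and Bhlhe41 (0.61 ± 0.19, adjusted p = 0.183). Leo1 (−0.49), Nampt (−0.17) and Rorb (0.22) also had groups that did not overlap and were not called, with adjusted p of 0.196, 0.427 and 0.37. Hlf, Bhlhe40, Csnk1d, Csnk1e, Fbxl21 and Arntl2 overlapped between the groups.

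The number of called clock genes depended on the arrays. Leaving out transgenic array 1 gave 8 called genes, and leaving out array 2 or 3 of that group gave 4. Leaving out array 1, 2 or 3 of the wild type group gave 3, 6 and 7. Arntl, Per2 and Usp2 passed whichever array was left out, with adjusted p up to 0.0299, 0.0397 and 0.0455. Ciart did not pass without wild type array 1 (0.0575). Npas2, Per1 and Per3 did not pass without 3 or 4 of the arrays, wild type array 1 among them each time (up to 0.0553, 0.0624 and 0.0634). Tef and Nr1d2 did not pass without 5 of the arrays (up to 0.0817 and 0.0659), nor Cry2 and Tspan4 without any of the 6 (up to 0.105 and 0.119).

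**Figure D2:**
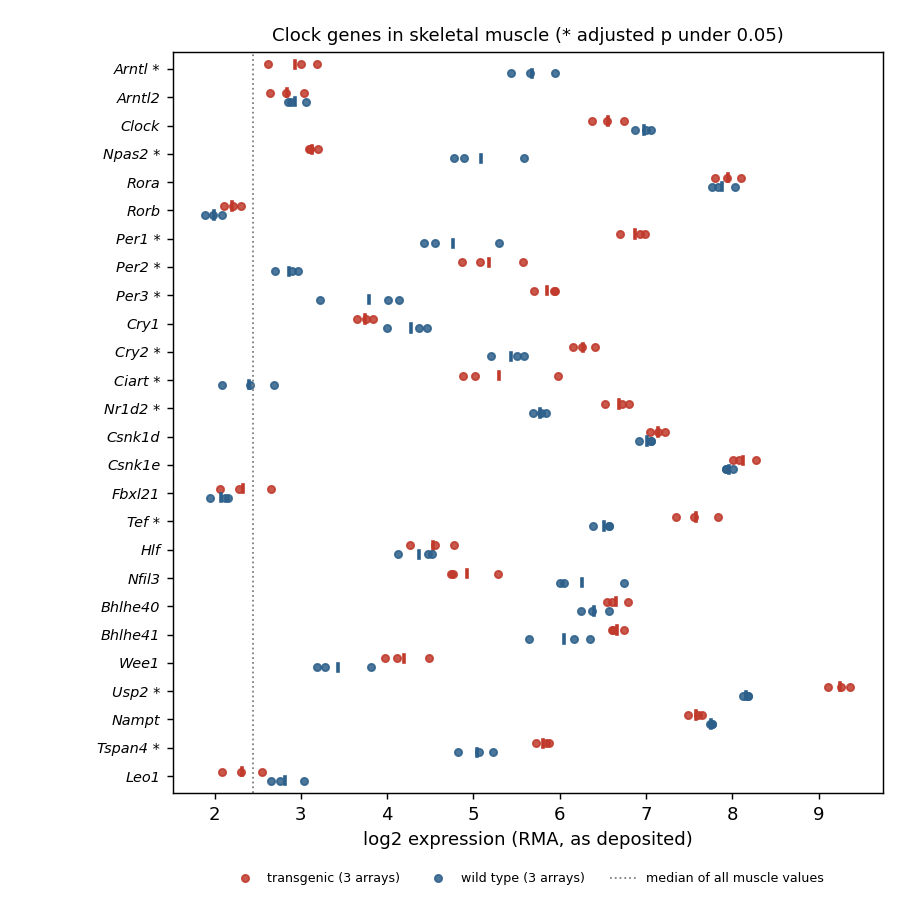
Log2 expression (x axis) of the 26 measured clock genes on the 3 transgenic arrays (red) and the 3 wild type arrays (blue), with a bar at each group mean and an asterisk for an adjusted p under 0.05. Arntl and Npas2 lie far left in transgenic muscle, while Per1, Per2, Per3 and Ciart lie far right.

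BMAL1 and its partners bind the E-box CACGTG, and PAR bZIP factors and NFIL3 bind the D-box TTATGTAA. RefSeq promoter windows of assembly GRCm38.p6 were found for 10 of the 11 called clock genes, not for Per2, with 14 windows of 250 bases before a gene's start. An exact CACGTG, which reads the same on both strands, lay in a window of 4 of these genes (Ciart, Per1, Tef and Tspan4), and in 6.02% of all 32851 windows. The exact TTATGTAA, on either strand, lay in the window of Per3 and in 0.819% of all windows. The 2 windows of Arntl and the window of Npas2 held neither, nor the ROR response element letters TAGGTCA (in 2.23% of all windows). These matches describe the letters and do not show that a factor bound there. The stretches that hold them are shown because these genes are among those called and hold exact matches. The E-boxes (first 3 lines) and D-boxes (last line) are in capitals. The stretches are Ciart chr3:95882249-95882358 on the minus strand, Per1 chr11:69098759-69098818 and Tef chr15:81802523-81802582 on the plus strand, and Per3 chr4:151044805-151044885 on the minus strand.
Ciart: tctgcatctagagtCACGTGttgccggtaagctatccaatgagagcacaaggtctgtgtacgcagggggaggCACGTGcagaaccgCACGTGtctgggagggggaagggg
Per1: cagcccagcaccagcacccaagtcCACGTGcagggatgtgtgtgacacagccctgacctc
Tef: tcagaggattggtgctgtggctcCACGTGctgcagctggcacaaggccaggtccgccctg
Per3: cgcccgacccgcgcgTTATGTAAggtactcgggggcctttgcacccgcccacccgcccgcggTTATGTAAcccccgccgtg
Ciart held 3 E-boxes, beginning 116, 58 and 44 bases before its start, and Per3 held 2 D-boxes, at 205 and 158 bases. Per1 held 1 E-box at 166 bases in the first of its 2 windows, and Tef held 1 in each of its windows, at 127 and 138 bases.

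The largest rise was in Mt2, a metallothionein gene whose small, cysteine-rich product binds zinc and other metals and is induced by zinc and by glucocorticoids. Mt2 was at 9.87, 9.81 and 10.03 in transgenic arrays, against 6.75, 6.54 and 7.29 in wild type arrays. Every transgenic array was at least 2 log2 units above every wild type array, and the difference was 3.04 ± 0.20 (limma, adjusted p = 0.0034, 8.23-fold higher). Mt1, its neighbour on chromosome 8, was at 7.21, 7.02 and 7.63 in transgenic and 5.82, 5.98 and 6.40 in wild type muscle, a smaller difference of 1.22 ± 0.21 (adjusted p = 0.0414). Mt3 (0.81 ± 0.18, adjusted p = 0.088) and Mtf1, the gene of the zinc-sensing factor that drives metallothioneins (0.12 ± 0.13, adjusted p = 0.735), did not pass. The zinc importer gene Slc39a10 fell by 0.70 ± 0.13 (adjusted p = 0.0496), and the zinc transporter genes Slc30a1, Slc30a2 and Slc39a14 were at 0.28, −1.0 and −0.13 without passing (adjusted p = 0.491, 0.0874 and 0.625). The call on Mt2 stood with each array left out (adjusted p up to 0.0281), while those on Mt1 and Slc39a10 did not pass without any 1 of the 6 arrays (up to 0.147 and 0.16).

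MTF1 binds metal response elements with the core TGCACNC or TGCGCNC. On either strand these letters are common, and 21.4% of all windows held at least 1. The stretches around the cores are shown for both genes, since Mt2 had the largest rise of all named genes and Mt1 lies beside it. The cores are in capitals, and the last core of Mt2 is on the other strand. The stretches are Mt2 chr8:94172383-94172577 and Mt1 chr8:94179019-94179083, both on the plus strand of GRCm38.p6, from RefSeq.
Mt2: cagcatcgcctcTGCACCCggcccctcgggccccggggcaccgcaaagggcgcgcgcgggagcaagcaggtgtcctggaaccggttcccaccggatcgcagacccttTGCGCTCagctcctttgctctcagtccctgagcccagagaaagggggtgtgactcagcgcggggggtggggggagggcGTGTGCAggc
Mt1: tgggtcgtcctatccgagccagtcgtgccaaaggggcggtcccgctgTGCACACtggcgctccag
Mt2 held 3 cores, beginning 223, 128 and 50 bases before its start, and Mt1 held 1, at 23 bases.

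None of the 20 measured genes of a glucocorticoid response list was called, near the 3.35% of all genes, with a list median of −0.05. Fkbp5, a widely used marker of glucocorticoid action, was at 4.21, 4.96 and 6.07 in transgenic arrays, against 5.85, 5.96 and 6.06 in wild type arrays (−0.88 ± 0.43, adjusted p = 0.415). The transgenic arrays were spread more widely than the wild type arrays, and the groups overlapped. Nfkbia, the gene of the NF-kB inhibitor, was at 0.93 ± 0.21 (adjusted p = 0.0925), and Pik3r1 was at −0.77 ± 0.18 (adjusted p = 0.0935).

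Several genes outside these groups were higher in transgenic muscle by log2 differences near 2 or above. Tmem28 was at 5.87, 5.70 and 5.72 in transgenic and 2.64, 3.13 and 2.96 in wild type arrays (2.86 ± 0.14, limma, adjusted p = 0.00216). Ift27, which encodes a component of intraflagellar transport, was at 6.53, 6.16 and 6.33 in transgenic arrays, against 3.75, 3.79 and 3.78 in wild type arrays (2.57 ± 0.11). Snai3, a gene of the Snail family of transcriptional repressors, was at 7.24, 6.86 and 7.13 in transgenic arrays, against 4.66, 4.74 and 4.13 in wild type arrays (2.56 ± 0.19). In all 3 the groups lay over 2 log2 units apart, and each call stood with any array left out. BC051142 rose by 2.78 ± 0.14 as well, and since its wild type mean lay under the array median, the exact size is not read. Nmrk2, which encodes a nicotinamide riboside kinase of muscle that makes NAD, was at 8.51, 8.37 and 8.68 in transgenic and 6.57, 6.82 and 6.20 in wild type muscle (1.99 ± 0.18, adjusted p = 0.0064). Lrrc51 rose by 2.00 ± 0.17 and Mzb1, known from B cells and plasma cells, rose by 1.98 ± 0.18.

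The nuclear receptor gene Nr4a3, an immediate early gene of exercised muscle, was at 6.43, 5.98 and 6.16 in transgenic arrays, against 3.49, 4.69 and 3.34 in wild type arrays. Wild type array 2 was the highest of its group, and the difference was 2.35 ± 0.36 (limma, adjusted p = 0.0288). Ak4, the gene of a mitochondrial adenylate kinase, rose by 2.27 ± 0.33 by 1 probe set (adjusted p = 0.0256), and its other probe set was at 1.09 (adjusted p = 0.0716). Neither call passed without 5 of the 6 arrays, with adjusted p up to 0.107 for Nr4a3 and 0.101 for Ak4. Of the 27 immediate early genes measured, 1 rose (Nr4a3, against 1.35% of all genes) and 1 fell (against 2.01%), Homer1, which encodes a scaffold of the postsynaptic density (−0.65 ± 0.11, adjusted p = 0.0381, and up to 0.124 with 1 array left out). The list median was 0.23. Egr1 (1.03 ± 0.22, adjusted p = 0.0773) and Junb (0.50 ± 0.10, adjusted p = 0.0605) were above wild type on every transgenic array and did not pass.

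**Figure D3:**
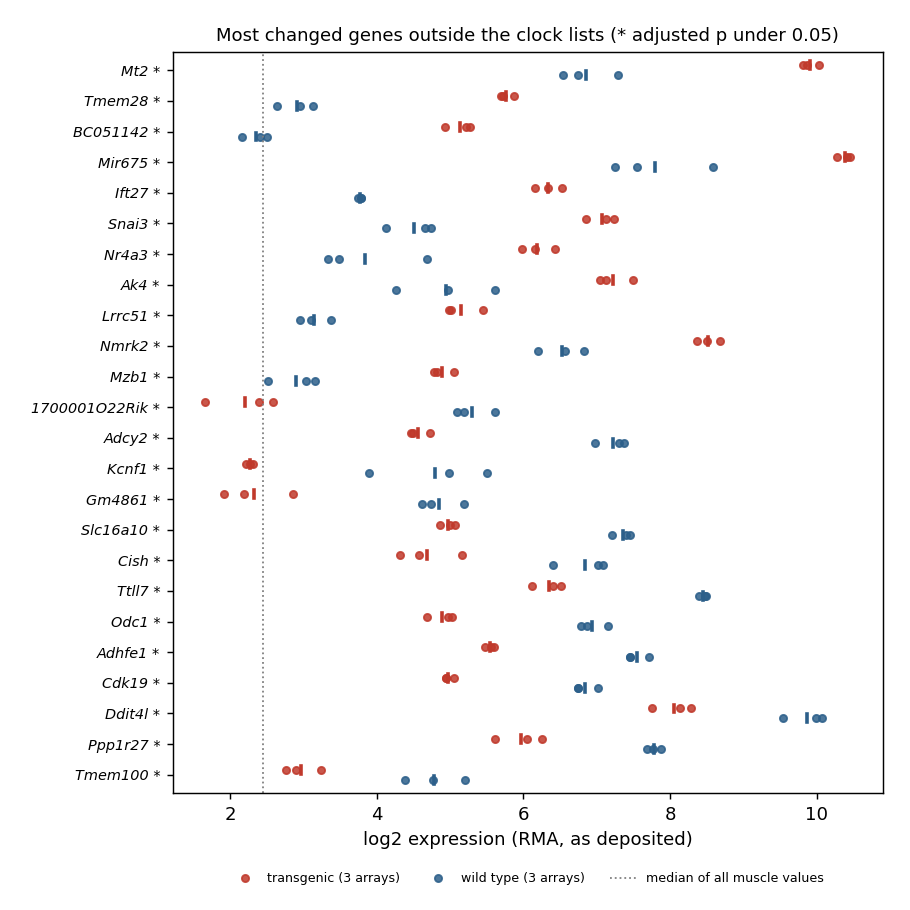
Log2 expression (x axis) on the 3 transgenic arrays (red) and the 3 wild type arrays (blue) of the genes outside the clock lists with the largest called differences, with a bar at each group mean. The upper 11 genes were higher and the lower 13 lower in transgenic muscle, and the groups do not overlap for any of them.

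The imprinted neighbours H19 and Igf2 were represented by a probe set named for Mir675 and by Igf2. H19 is a noncoding RNA expressed from the maternal allele, Mir675 is a microRNA within it, and Igf2 is a growth factor gene expressed from the paternal allele. In GRCm38.p6, H19 lies at chr7:142575530-142578146, Mir675 at chr7:142577064-142577147 and Igf2 at chr7:142650768-142666816. The probe set of Mir675 was at 10.46, 10.27 and 10.41 in transgenic arrays, against 7.55, 7.25 and 8.58 in wild type arrays (2.59 ± 0.33, limma, adjusted p = 0.0169). Igf2 was at 7.46, 7.45 and 7.64 in transgenic arrays, against 5.49, 5.58 and 6.11 in wild type arrays (1.79 ± 0.18, adjusted p = 0.00911). Wild type array 3 was the highest of its group for both. Which of the 2 transcripts, H19 or its microRNA, this probe set reads was not tested. The mature sequences from RefSeq are shown to identify the product, with the seed (bases 2 to 8) in capitals. Their positions are chr7:142577112-142577133 and chr7:142577078-142577099, on the minus strand.
mmu-miR-675-5p: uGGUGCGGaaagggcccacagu
mmu-miR-675-3p: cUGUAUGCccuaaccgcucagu
The 2 arms do not share a seed.

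Of 17 imprinted genes measured, 3 rose and 2 fell, with a list median of 0.10, while 1.35% of all genes rose and 2.01% fell. Peg10, a gene derived from a retrotransposon, rose by 1.57 ± 0.25. Igf2r, whose product clears IGF2 from the cell surface, fell by 1.12 ± 0.09, and Cdkn1c, the gene of the cyclin-dependent kinase inhibitor p57, fell by 0.81 ± 0.09 (adjusted p = 0.031, 0.00563 and 0.0139). Igf2r was at 5.97, 5.76 and 5.80 in transgenic muscle and 6.96, 6.97 and 6.99 in wild type muscle. Igf2r passed with any array left out (adjusted p up to 0.0397). Igf2 did not pass without wild type array 2 (0.0522), Mir675 and Peg10 without 5 of the arrays (up to 0.0778 and 0.118) and Cdkn1c without any of the 6 (up to 0.066).

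Growth hormone acts through JAK2 and STAT5 to induce Igf1 and the feedback inhibitors Cish and Socs2. Of the 22 genes of this list, 4 fell, 1 rose (Igf2) and 17 did not pass, with a list median of −0.26 against 0.01 over all genes, of which 2.01% fell. With all 18 arrays in the fit 9 fell, and over probe sets with 1 symbol 8. In these fits the 514 lower calls over all probe sets became 1520 and 944. Cish was at 5.16, 4.57 and 4.32 in transgenic arrays, against 6.40, 7.08 and 7.02 in wild type arrays (−2.15 ± 0.27, limma, adjusted p = 0.0165). Socs2 was at 5.52, 5.18 and 5.17 in transgenic arrays, against 6.52, 7.05 and 6.35 in wild type arrays (−1.35 ± 0.20, adjusted p = 0.0288). Igf1 was at 5.24, 5.31 and 4.99 in transgenic arrays, against 6.16, 6.08 and 6.12 in wild type arrays (−0.94 ± 0.11, adjusted p = 0.0141). All 3 genes were lower on every transgenic array, and so was Igfbp5, a binding protein of the IGFs (−1.11 ± 0.15, adjusted p = 0.0207). The growth hormone receptor gene Ghr (−0.46 ± 0.10, adjusted p = 0.0722), Stat5b (−0.47 ± 0.12, adjusted p = 0.115) and the insulin receptor substrate gene Irs1 (−0.64 ± 0.16, adjusted p = 0.118) were below wild type on every transgenic array without passing. With 1 array left out, 0 to 2 genes of the list fell and 0 or 1 rose. Cish and Igf1 did not pass without 4 of the arrays (up to 0.0757 and 0.0683), Igfbp5 without 5 (up to 0.0931) and Socs2 without any of the 6 (up to 0.102).

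Genes of cyclic AMP signalling, in which adenylyl cyclases make the messenger and PDE4 enzymes degrade it, were lower in 5 of 18 cases and higher in none, with a list median of −0.18, while 2.01% of all genes were lower. Adcy2, an adenylyl cyclase gene, was at 4.50, 4.72 and 4.47 in transgenic arrays, against 7.31, 7.37 and 6.97 in wild type arrays. It was 6.31-fold lower, with no overlap between the groups (−2.66 ± 0.14, limma, adjusted p = 0.00216, and up to 0.0242 with 1 array left out). Another cyclase gene, Adcy9, fell by 0.79 ± 0.13, the phosphodiesterase genes Pde4a and Pde4b fell by 0.80 ± 0.08 and 1.44 ± 0.16, and Prkacb, a catalytic subunit gene of protein kinase A, fell by 0.67 ± 0.12. Pde4d was at −0.54 ± 0.10 (adjusted p = 0.0557). Pde4a and Pde4b did not pass without wild type array 1 or 2 (up to 0.0564 and 0.0633), nor Adcy9 and Prkacb without any 1 of the 6 arrays (up to 0.137 and 0.156), which left 1 to 3 genes of the list.

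Amino acid transporters were called lower in 3 of 15 cases, against 2.01% of all genes, and higher in none, although the list median was 0.12. Slc16a10, a transporter of aromatic amino acids, was at 5.07, 4.86 and 5.0 in transgenic muscle and 7.46, 7.40 and 7.21 in wild type muscle (−2.38 ± 0.11, limma, adjusted p = 0.00216, 5.20-fold lower). Slc38a4 was at 8.35, 8.41 and 8.58 in transgenic and 9.97, 9.85 and 9.67 in wild type arrays (−1.39 ± 0.12, adjusted p = 0.00588). Slc38a2 was at 8.17, 8.06 and 8.14 in transgenic and 9.47, 9.48 and 9.17 in wild type arrays (−1.25 ± 0.11, adjusted p = 0.00702). The last 2 encode sodium-coupled carriers of neutral amino acids and lie beside each other on chromosome 15. All 3 calls stood with any array left out (adjusted p up to 0.0242, 0.04 and 0.0453). Slc1a5, a glutamine carrier gene, was at 0.75 ± 0.24 (adjusted p = 0.204).

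Odc1, the rate-limiting enzyme of polyamine synthesis, was at 4.97, 4.69 and 5.03 in transgenic arrays, against 6.87, 7.16 and 6.78 in wild type arrays. Its 2 probe sets differed by −2.04 and −2.05 (SE 0.14, limma, adjusted p = 0.00359). Sms, the spermine synthase gene, fell by 0.76 ± 0.11 (adjusted p = 0.0244), a call that did not pass without 5 of the arrays (up to 0.103). Smox, which encodes spermine oxidase, was at −0.96 ± 0.19 (adjusted p = 0.0586), and 2 of the 8 genes of the list fell in all, against 2.01% of all genes.

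Other large falls were in 1700001O22Rik (−3.08 ± 0.26, limma, adjusted p = 0.00588), the potassium channel subunit gene Kcnf1 (−2.53 ± 0.38, adjusted p = 0.0273) and Gm4861 (−2.52 ± 0.27, adjusted p = 0.011), whose transgenic means lay under the array median. Ttll7, a tubulin polyglutamylase gene, was at 6.12, 6.40 and 6.51 in transgenic and 8.49, 8.39 and 8.47 in wild type arrays (−2.11 ± 0.12). Adhfe1, a mitochondrial dehydrogenase gene, was at 5.56, 5.60 and 5.48 in transgenic arrays, against 7.46, 7.46 and 7.71 in wild type arrays (−1.99 ± 0.11). Cdk19, a kinase gene of the Mediator complex, was at 4.94, 4.94 and 5.05 in transgenic arrays, against 6.75, 7.02 and 6.75 in wild type arrays (−1.86 ± 0.11). The arrays of each group lay close together for these last 3, and their calls stood with any array left out. Ppp1r27 fell by 1.81 ± 0.17 and Tmem100 fell by 1.81 ± 0.23. Without 1 array, Gm4861 (2 arrays, up to 0.0555), Tmem100 (4 arrays, up to 0.0767) and Kcnf1 (5 arrays, up to 0.108) did not pass.

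Of 19 genes of muscle atrophy and its brakes on mTOR, 4 fell, against 2.01% of all genes, none rose and the list median was −0.06. Ddit4l, an inhibitor of mTOR signalling, was at 8.28, 8.13 and 7.76 in transgenic and 10.07, 9.99 and 9.54 in wild type arrays (−1.81 ± 0.19, limma, adjusted p = 0.011). Mstn, the gene of the growth inhibitor myostatin, was at 7.25, 7.13 and 7.44 in transgenic arrays, against 8.15, 8.05 and 7.96 in wild type arrays (−0.78 ± 0.11, adjusted p = 0.0254). The 2 ubiquitin ligase genes that mark atrophy gave different results: Fbxo32 (atrogin-1) fell by 1.15 ± 0.20 (adjusted p = 0.0438), and Trim63 (MuRF1) was at 0.12 ± 0.21 (adjusted p = 0.84). Psme4, a proteasome activator gene, fell by 0.57 ± 0.09, while 0 of 25 proteasome subunit genes were called, near the 3.35% of all genes. Ddit4l did not pass without wild type array 1 or 2 (up to 0.0608), and Mstn, Fbxo32 and Psme4 without any 1 of the 6 (up to 0.103, 0.136 and 0.116), so that 0 or 1 gene of the list fell with 1 array left out.

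Genes of the neuromuscular junction gave 2 falls and 1 rise among 23, with a median of −0.03, against 2.01% and 1.35% of all genes. Chrnb1, the beta subunit gene of the muscle acetylcholine receptor, was at 5.19, 5.13 and 5.04 in transgenic and 6.32, 6.27 and 6.20 in wild type arrays (−1.14 ± 0.09, limma, adjusted p = 0.00462). Musk, the kinase gene that organises the junction, fell by 1.21 ± 0.14 (adjusted p = 0.0126). Runx1, a transcription factor gene known to rise in denervated muscle, was at 5.53, 4.95 and 5.24 in transgenic and 3.53, 3.58 and 3.77 in wild type arrays (1.61 ± 0.16, adjusted p = 0.00978). Chrna1, Chrng, Myog and Ncam1, which also rise on denervation, were at 0.33, −0.16, 0.24 and −0.01 and were not called (adjusted p = 0.446, 0.736, 0.703 and 0.986); they were picked for mention after their values were seen. Musk did not pass without any 1 wild type array (up to 0.0633), nor Runx1 without wild type array 1 or 2 (up to 0.0588). Phlda3, a target of p53, was at 9.99, 9.98 and 9.90 in transgenic and 8.79, 8.82 and 8.63 in wild type arrays (1.21 ± 0.09, adjusted p = 0.00462), the only call among 13 p53 targets, while 3.35% of all genes were called. Eda2r, another of them, was at 1.13 ± 0.21 (adjusted p = 0.0509).

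Troponin C is the source of the calcium-binding domain of the indicator. None of the 8 troponin genes was called, near the 3.35% of all genes, with differences of −0.02 to 0.14 and a median of 0.06. Of the troponin I and T genes, Tnni1 was at 0.14, Tnni2 and Tnni3 at 0.06, Tnnt1 at 0.09, Tnnt2 at −0.01 and Tnnt3 at 0.03, with adjusted p between 0.787 and 0.987. Tnnc2, the troponin C gene of fast fibres, was at 11.07, 11.16 and 11.08 in transgenic and 11.21, 11.11 and 11.04 in wild type arrays (−0.02 ± 0.09, limma, adjusted p = 0.953). None of 16 calcium buffer genes and none of 15 calmodulin and CaM kinase genes was called, also near that share. The parvalbumin gene Pvalb was at 0.04 ± 0.08 (adjusted p = 0.869). In the calmodulin list Camk2a (−0.48 ± 0.10, adjusted p = 0.0649), Camk2n1 (0.57 ± 0.11, adjusted p = 0.0644) and Calm3 (−0.54 ± 0.13, adjusted p = 0.1) had groups that did not overlap.

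In the calcineurin pathway 3 of 15 genes fell and 1 rose, against 2.01% and 1.35% of all genes. Ppp3cb, a catalytic subunit gene of calcineurin, was at 7.24, 7.05 and 7.21 in transgenic and 8.08, 8.06 and 8.0 in wild type arrays (−0.88 ± 0.09, limma, adjusted p = 0.0107). Rcan1 and Rcan2, which encode calcineurin regulators, fell by 0.98 ± 0.15 and 0.80 ± 0.11, and Nfatc2 rose by 0.88 ± 0.12 (adjusted p = 0.03, 0.019 and 0.0199). Rcan1 is itself induced by calcineurin and NFAT. Ppp3cb did not pass without wild type array 1 or 2 (up to 0.0608), Rcan1 and Nfatc2 without 5 of the arrays (up to 0.118 and 0.0905) and Rcan2 without any of the 6 (up to 0.0895).

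The machinery of excitation-contraction coupling gave 1 call among 23 genes, near the 3.35% of all genes, in Cacna2d1, which encodes the alpha-2/delta-1 subunit of the calcium channel of the triad. It was at 8.42, 8.51 and 8.39 in transgenic and 9.55, 9.30 and 9.18 in wild type arrays (−0.90 ± 0.12, limma, adjusted p = 0.0192, and −0.83 by its other probe set). Of the other members, Ryr1 was at −0.11 ± 0.09, Cacna1s at −0.23 ± 0.09, Casq1 at −0.19 ± 0.09 and Atp2a1, the fast calcium pump gene, at −0.11 ± 0.08 (adjusted p = 0.626, 0.282, 0.368 and 0.586). Each of these 4 was below wild type on every transgenic array, an arrangement found in either direction for 26.9% of genes. Sln, the gene of the pump inhibitor sarcolipin, was at 3.32, 3.46 and 3.24 in transgenic and 2.37, 2.42 and 2.86 in wild type arrays and missed the threshold (0.79 ± 0.15, adjusted p = 0.058). Among 20 genes of calcium entry and extrusion 2 fell, against 2.01% of all genes. They were the plasma membrane pump gene Atp2b3 (−1.31 ± 0.19, adjusted p = 0.0248) and the store sensor gene Stim2 (−0.66 ± 0.10, adjusted p = 0.0288). Stim1 was at −0.26 ± 0.10 (adjusted p = 0.29) and the mitochondrial uniporter gene Mcu at 0.19 ± 0.12 (adjusted p = 0.521). Cacna2d1 and Atp2b3 did not pass without 5 of the arrays (up to 0.0817 and 0.0974), nor Stim2 without any of the 6 (up to 0.102).

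Among the fibre type genes the share of calls was near the 3.35% of all genes. Of 16 fast fibre genes 1 fell, the myosin light chain kinase gene Mylk2 (9.24, 9.33 and 9.33 in transgenic and 10.15, 10.21 and 10.03 in wild type arrays, −0.83 ± 0.09, limma, adjusted p = 0.0123). It did not pass without 4 of the arrays (up to 0.0633). None of 16 slow fibre genes passed, and the list medians were 0.02 and 0.04. The myosin heavy chain genes Myh4, Myh1, Myh2 and Myh7 were at 0.02, −0.14, −0.06 and 0.28, with adjusted p of 0.938, 0.695, 0.91 and 0.621. Slow fibre genes varied within the transgenic group: Tnnc1 was at 8.32, 8.49 and 7.46 in transgenic and 8.16, 8.01 and 7.93 in wild type arrays, and Myh7 at 9.51, 9.85 and 8.99 in transgenic and 9.24, 9.02 and 9.25 in wild type arrays. Transgenic array 3 was the lowest of its group for both.

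**Figure D4:**
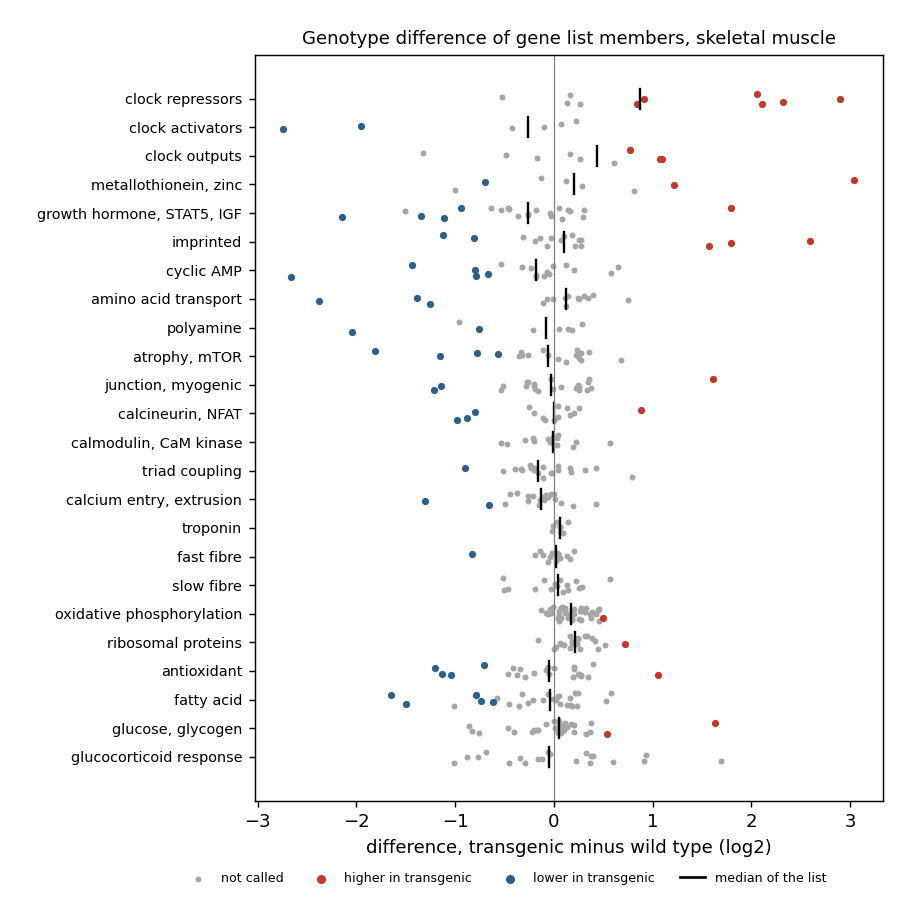
Each point is a measured member of a gene list, placed by its log2 difference (transgenic minus wild type), with called members in red (higher) or blue (lower), grey for those not called and a black bar at the list median. Clock repressors have the highest median (0.88), while the 8 troponin genes lie within 0.14 of 0.

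Of 28 genes of fatty acid handling 5 fell, against 2.01% of all genes, and none rose, with a median of −0.04. Mlycd, which encodes malonyl-CoA decarboxylase, was at 3.58, 3.37 and 3.77 in transgenic and 5.11, 5.10 and 5.0 in wild type arrays (−1.50 ± 0.12, limma, adjusted p = 0.00563). Plin5, a lipid droplet protein gene, fell by 1.65 ± 0.27, the electron transfer flavoprotein gene Etfa fell by 0.79 ± 0.09, the lipoprotein lipase gene Lpl fell by 0.74 ± 0.13 and the triglyceride lipase gene Pnpla2 fell by 0.62 ± 0.11 (adjusted p = 0.0349, 0.0112, 0.0425 and 0.0467). Only Mlycd of these 5 passed with any array left out (up to 0.0397), and 1 to 3 genes of the list fell in those fits. Among the other 4, Etfa did not pass without 3 of the arrays (up to 0.0608), Plin5 without 5 (up to 0.113), and Lpl and Pnpla2 without any of the 6 (up to 0.143 and 0.14). Ppard, a nuclear receptor gene that drives fat oxidation, fell by 0.55 ± 0.10 (adjusted p = 0.0456), also not past the threshold without any 1 array (up to 0.159). It was the 1 call among 18 genes of mitochondrial regulation, against 3.35% of all genes, with a list median of 0.09. Of these, 6 were above wild type on every transgenic array and 4 below. Ppargc1b (0.91), Sirt3 (0.53) and Mfn2 (0.35) were above without passing (adjusted p = 0.0659, 0.0531 and 0.106). Ppargc1a was at −0.12 ± 0.11 (adjusted p = 0.655).

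In glucose metabolism 2 of 31 genes rose, against 1.35% of all genes, and none fell. Pfkfb3 (−0.86), Phkb (−0.40) and Txnip (−0.76) were below wild type on every transgenic array without passing (limma, adjusted p = 0.0689, 0.0703 and 0.0728). Of the list 10 genes were above wild type on every transgenic array and 8 below, while 26.9% of all genes did not overlap. With all 18 arrays, an intensity trend, averaged or 1-symbol probe sets, or no dimmer ones, 3 or 4 rose and 3 or 4 fell. Calls outside the list rose as well. Fbp2, the fructose bisphosphatase gene of muscle, was at 7.98, 7.89 and 7.96 in transgenic and 6.27, 6.36 and 6.32 in wild type arrays. The arrays of each group lay close together, and the 3.09-fold difference passed with any array left out (1.63 ± 0.08, limma, adjusted p = 0.00216, up to 0.0242). The phosphoglycerate kinase gene Pgk1 rose by 0.54 ± 0.10 (adjusted p = 0.0489), but not with any 1 array left out (up to 0.154). Gamt, which makes creatine, fell by 0.92 ± 0.14 (adjusted p = 0.0277, up to 0.113 with 1 array left out).

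Of 40 genes of oxidative phosphorylation 1 rose, against 1.35% of all genes, Ndufb5 of complex I (0.50 ± 0.08, limma, adjusted p = 0.0335, with its other probe set at 0.34 and an adjusted p of 0.289). More genes of this list were called higher under other settings, 11 with all 18 arrays in the fit, 7 with an intensity trend, 7 after averaging each gene's probe sets, 7 over probe sets with 1 symbol and 5 without the dimmer probe sets, and none was called lower in these fits. Calls also rose outside the list. The 324 higher probe sets became 1364 with all 18 arrays, 531 with the trend, 750 over those with 1 symbol and 659 without the dimmer ones. The list median was 0.17, and 19 of the 40 genes, among them Ndufa1, Ndufb10 and Atp5o, were above wild type on every transgenic array while 0 were below. Over all genes 26.9% had groups that did not overlap in either direction. Of 22 ribosomal protein genes 1 rose, against 1.35% of all genes, Rpl3 (0.72 ± 0.09, adjusted p = 0.0165), whose 6 probe sets differed by 0.70 to 0.74. Some of these 6 had the same values on every array, so they are not 6 separate readings. The ribosomal list had a median of 0.21, with 12 genes above wild type on every transgenic array and 1 below. Neither Ndufb5 nor Rpl3 passed with any 1 array left out (up to 0.124 and 0.0748).

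Among antioxidant genes 4 of 24 fell and 1 rose, with a median of −0.06, against 2.01% and 1.35% of all genes. Gclm, the modifier subunit of the enzyme that starts glutathione synthesis, was at 4.80, 4.87 and 4.73 in transgenic and 5.87, 5.84 and 5.80 in wild type arrays (−1.04 ± 0.09, limma, adjusted p = 0.00563). The glutathione transferase genes Gstm2 and Gstm1 fell by 1.20 ± 0.11 and 0.71 ± 0.11, and the quinone reductase gene Nqo1 fell by 1.13 ± 0.19 (adjusted p = 0.00694, 0.033 and 0.0374). Gstm1 and Gstm2 are close paralogs beside each other on chromosome 3, so that cross-matching of their probes cannot be told apart from a change in both. Gpx1, a glutathione peroxidase gene, rose by 1.05 ± 0.11 (adjusted p = 0.00957). Gclm, Gstm2 and Gpx1 passed with any array left out (up to 0.0397, 0.0476 and 0.0477), and Gstm1 and Nqo1 with none (up to 0.127 and 0.124). No gene of the unfolded protein response (21), collagen (21) or interferon (24) lists was called, near the 3.35% of all genes. In the heat shock list (17 genes) Hspb8 rose by 0.54 ± 0.09 and Hspa1l fell by 0.95 ± 0.15 (adjusted p = 0.0447 and 0.0348). They were its only calls, while 1.35% of all genes rose and 2.01% fell. The other probe set of Hspa1l was at 0.54 (adjusted p = 0.16), and neither gene passed with any 1 array left out (up to 0.16 and 0.126).

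Markers of other cell types in the tissue were read beside these groups. In whole muscle, fewer cells of a type and less RNA per cell cannot be told apart. The 10 satellite cell markers summed to 7.90 to 8.05 on the log2 scale in transgenic and 8.11 to 8.37 in wild type arrays. Pax7, the defining factor of these stem cells, was at 2.83, 2.85 and 2.87 in transgenic arrays, against 4.12, 3.72 and 3.82 in wild type arrays (−1.04 ± 0.12, limma, adjusted p = 0.0141), and Chrdl2 fell by 0.68 ± 0.11 (adjusted p = 0.0357). These were the 2 calls among the 10 markers, against 2.01% of all genes called lower. Pax7 did not pass without 4 of the arrays (up to 0.0592), nor Chrdl2 without any of the 6 (up to 0.136). Endothelial markers summed to 9.85 to 10.19 in transgenic and 10.24 to 10.42 in wild type arrays, with a list median of −0.16. Tek, the angiopoietin receptor gene, was the 1 call of 14, against 3.35% of all genes (−0.72 ± 0.11, adjusted p = 0.0314, up to 0.099 with 1 array left out). Adipocyte markers summed to 11.73 to 11.76 in transgenic and 11.63 to 11.73 in wild type arrays, mostly from their brightest member (mean 11.44). The mean of their log2 levels was 5.56 to 5.74 in transgenic and 5.01 to 5.38 in wild type arrays, without overlap. The median difference was 0.42 over 11 genes. Of these, 5 were above wild type on every transgenic array and 0 below, while 26.9% of all genes did not overlap in either direction. The 1 call, against 3.35% of all genes, was Pparg (0.67 ± 0.09, adjusted p = 0.0202, up to 0.0886 with 1 array left out). Adipoq overlapped between the groups (0.83 ± 0.29, adjusted p = 0.248).

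Macrophage markers summed to 8.06 to 8.53 in transgenic and 7.42 to 8.13 in wild type arrays, with no call among 11 and Cd68 at 0.93 ± 0.20 (adjusted p = 0.073). Neuron markers summed to 6.00 to 6.16 in transgenic and 6.34 to 6.50 in wild type arrays, 6 of the 9 with means under the array median. None of the 9 was called, and the list median was −0.04. Their brightest member, Camk2a, was at −0.48 ± 0.10 (adjusted p = 0.0649). Markers of lymphocytes and granulocytes were near background, with all 11 under the array median. The 9 cardiac markers summed to 11.50 to 11.69 in transgenic and 11.11 to 11.19 in wild type arrays, without overlap. Their brightest member, the cardiac actin gene Actc1, was at 11.57, 11.39 and 11.57 in transgenic arrays and no higher than 11.09 in wild type arrays (0.47 ± 0.09, limma, adjusted p = 0.0603). The atrial light chain gene Myl4 was at 0.68 ± 0.15 (adjusted p = 0.0804), and 6 of the 9 markers lay under the array median. None of the 9 was called, but 2 were called with an intensity trend, over probe sets with 1 symbol, after averaging each gene's probe sets and without the dimmer probe sets. Those settings also gave more calls among all genes or probe sets. No marker of smooth muscle, fibroblasts and tendon, Schwann cells or erythrocytes was called, while 3.35% of all genes were. The part of these shifts in the differences given above was not tested.

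The differences in muscle were set against those in heart and hippocampus by fitting muscle with 1 other tissue and testing the difference of the 2 genotype differences. Muscle differed from heart at 401 probe sets (1.13%; 1.68% of genes) and from hippocampus at 927 (2.62%; 3.74% of genes). Of the 93 called genes named here, 43 differed from heart and 80 from hippocampus. These counts are a description, since the named genes include those with the largest muscle differences and the 8 leading genes of each tissue comparison, named for passing it. For the clock, 9 of the 11 called clock genes differed from hippocampus, and none of the 11 passed the test against heart. Arntl was at −2.74 in muscle, −2.57 in heart and −0.35 in hippocampus, Per2 at 2.32, 2.29 and 0.37, and Per3 at 2.06, 2.54 and 0.10. Of the 11, 10 were also called in a fit of the heart arrays alone. That fit called 36 of 35382 probe sets in all, and a fit of the hippocampus arrays alone called 0. The 1 clock gene whose difference passed against heart was Hlf (0.16 in muscle and 1.38 in heart, limma interaction, adjusted p = 0.0302).

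Of the 15 most lowered genes 12 differed from heart and 15 from hippocampus, and of the 15 most raised genes 7 and 15. Tmem28, which had the smallest p against heart, was at 2.86 in muscle, −0.09 in heart and −0.16 in hippocampus (limma interaction, adjusted p = 0.000259 against heart and 0.000208 against hippocampus). Slc16a10 was at −2.38, −0.21 and −0.17, and Cdk19 at −1.86, 0.04 and 0.02 in the same order. Igf2 was at 1.79, −0.18 and 0.16, and the probe set of Mir675 at 2.59, −0.19 and 0.03. Ddit4l ran opposite ways, at −1.81 in muscle and 1.94 in heart (adjusted p = 0.00245), and so did Mstn, at −0.78 in muscle and 0.77 in heart (adjusted p = 0.00279), though neither heart value passed in heart alone (adjusted p = 0.0813 and 0.0994). Mt2 was at 3.04 in muscle and 1.42 in heart, a gap that did not pass (adjusted p = 0.218), and at 0.22 in hippocampus, a gap that did (adjusted p = 0.000303). Nmrk2 (1.99 in muscle, 1.76 in heart) and Rcan1 (−0.98 in muscle, −1.08 in heart) had the same direction in both striated muscles, and the gap between tissues did not pass (interaction, adjusted p = 0.79 and 0.898).

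**Figure D5:**
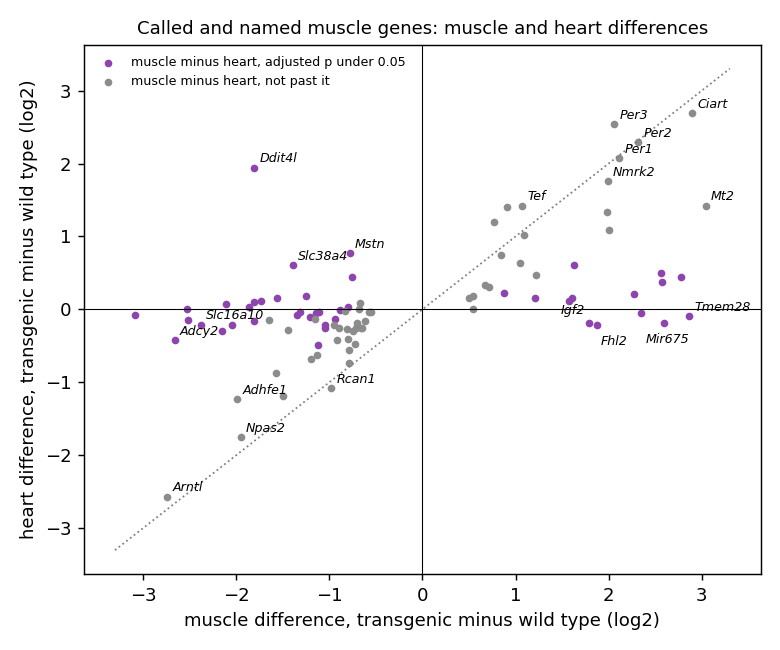
Each point is 1 of the 93 named genes called in muscle, with its difference in muscle on the x axis and in heart on the y axis (transgenic minus wild type, log2). Purple marks the 43 genes whose 2 differences passed the interaction test, and the dotted line is equality, along which Arntl, Per1, Per2 and Ciart lie.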

How the data were processed

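Total RNA of 3 transgenic and 3 wild type muscle samples was labelled for Affymetrix whole-transcript arrays. Per the submitters' processing notes, the authors made the deposited log2 values by RMA in R 2.10.0; which chip definition and filters were used, and which arrays were normalized jointly, is not given in the sources used here. From these values, limma 3.58.1 in R 4.3.3 fitted the 6 muscle arrays with 1 mean per group (4 residual and 2.54 prior degrees of freedom). P-values were two-sided and Benjamini-Hochberg adjusted over all 35382 probe sets, and every adjusted p in the text is from such a limma fit. With 3 arrays per group an exact permutation test cannot give a p below 0.10, so none was used. The number of arrays limits the precision, and the median SE was 0.13. Tissue differences came from fits of 12 arrays. Of the probe sets, 21153 carried 1 symbol, 1867 several and 12362 none in the platform annotation, and only those with 1 symbol were named. A gene was read from its probe set with the highest mean in muscle.

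The text names, in each direction, the 15 called genes with the largest differences whose higher mean reached the array median. It also names the measured members of the clock, metallothionein, troponin and sex-linked lists, up to 8 called and 3 uncalled members of other lists by unadjusted p, the 8 leading genes of each tissue comparison and a few fixed muscle genes. The members and the 48 lists (730 of 810 genes measured) were chosen with earlier results of these data known. The summed level of a marker list is the log2 of the sum of its members' linear values. The fits were tested on simulated data. Alternatives covered the arrays in the fit, weights, prior, normalization, probe sets, replicate block and each array left out. Figures were drawn with matplotlib 3.10.9.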

Additional observations from a re-analysis of the deposited data

Results flagged for a closer look

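Genotype differences that were unlike each other in muscle and another tissue were picked out by the limma interaction test of the difference itself. Against heart there were 401 such probe sets. The 8 named genes with the smallest p were Tmem28 (muscle minus heart 2.95 ± 0.18), Cdk19 (−1.90 ± 0.14), Slc16a10 (−2.16 ± 0.16), Fhl2 (2.09 ± 0.15), BC051142 (2.33 ± 0.18), Ift27 (2.18 ± 0.18), Slc38a4 (−1.99 ± 0.16) and Mdga1 (−1.84 ± 0.16), on the log2 scale ± SE, with adjusted p between 0.000259 and 0.000606. Fhl2, a LIM domain protein gene, was at 4.90, 4.63 and 4.53 in transgenic and 2.76, 2.91 and 2.76 in wild type muscle.

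Against hippocampus there were 927 such probe sets. The 8 leading genes were Adcy2 (muscle minus hippocampus −2.73 ± 0.15), Tmem28 (3.01 ± 0.19), Adhfe1 (−1.93 ± 0.13), Slc16a10 (−2.20 ± 0.16), Nup210 (−1.37 ± 0.10), Fbp2 (1.49 ± 0.11), Ttll7 (−2.08 ± 0.15) and Agt (−1.60 ± 0.12), with adjusted p between 0.000108 and 0.000219. In hippocampus itself these genes had differences of −0.19 to 0.14. The muscle arrays enter both comparisons, so that the 2 sets are not independent of each other.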

How the results depend on the processing

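No result changed direction. The 838 calls in muscle became 2884 with all 18 arrays in the fit, 1293 with an intensity trend and robust prior, 1694 over probe sets with 1 symbol, 1526 without the dimmer probe sets and 141 at an adjusted p under 0.01. Leaving out 1 array gave 145 calls (without wild type array 2) to 279 calls (without wild type array 3 or transgenic array 1). Muscle against heart (401) gave 903 with all 18 arrays, 679 without the dimmer probe sets and 196 to 286 with 1 array left out. Muscle against hippocampus (927) gave 1519 without the dimmer probe sets and 458 to 789 with 1 array left out. After averaging each gene's probe sets, 1602 of 18781 genes were called, with p adjusted over those genes. By the brightest probe set 630 were called, with p adjusted over all 35382 probe sets, so the 2 counts are not alike. Array weights, centring, quantile normalization and a 1.5-fold minimum stayed within 1.5 times the muscle count. Lists gained calls with all 18 arrays: growth hormone falls became 9 against 4 and fatty acid falls 8 against 5. Immediate early rises became 6 against 1, and falls 4 against 1. Of the 93 called genes named, 33 passed with each array left out, between 38 and 52 in any 1 such fit, and 86 after quantile normalization. The causes of these shifts were not tested. Groups share replicate numbers, and the labels do not say whether same-numbered arrays belong together. Over all probe sets, deviations from the group means correlated at −0.026, −0.031 and −0.028 between same-numbered arrays. Whether such arrays share more than a number at some genes was not tested. With a replicate block limma called 0 in muscle (4938 at an unadjusted p under 0.05), 40 against heart and 278 against hippocampus, and Arntl had an adjusted p of 0.0634. The signal near the array median limits the size of Ciart, BC051142, 1700001O22Rik, Kcnf1 and Gm4861.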

Other observations

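Some called genes lay beside another called gene. Placed by their RefSeq position, 37 pairs of neighbouring measured genes were both called, 25 of them in the same direction, and 5.87% of the 630 called genes were followed by a called gene, against 3.35% of all genes called, a difference that was not tested. Besides Mt2 and Mt1, Mir675 and Igf2, and Slc38a2 and Slc38a4, the pairs included Mfsd4b1 (−1.77) before Slc16a10 (−2.38) on chromosome 10, Gpr84 (1.80) before Zfp385a (1.67) on chromosome 15, and Gm4861 (−2.52) before Ddit4l (−1.81) on chromosome 3. Prkacb (−0.67) and Ttll7 (−2.11) also lie beside each other there. Mdga1 (−1.73) lies between Ccdc167 (−0.70) and Zfand3 (−0.66) on chromosome 17. The pairs were picked after their values were seen, and whether neighbouring probe sets read a shared transcript was not tested.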
